A study of Homo sapiens with 40 samples.

Results

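Genes of cholesterol and fatty acid synthesis were followed in 10 human lymphoma lines treated with an EZH2 inhibitor. The list holds 29 genes: the enzymes from acetyl-CoA to cholesterol, the regulators INSIG1, SREBF1 and SREBF2, enzymes that make, lengthen and desaturate fatty acids, and the sterol carrier STARD4. Each gene was represented by one microarray probe set that names no other gene, the one with the highest mean over all arrays. That gave 26 members of 19775 genes, and all 26 were bright enough to be among the 15211 genes tested. CYP51A1, FADS1 and FDFT1 were not analysed here.

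The lines are established cultures of diffuse large B-cell lymphoma, a fast-growing cancer that arises from germinal centre or activated B cells. The labels call 7 of them EZH2 mutant, with no allele named: DB, KARPAS-422, WSU-DLCL2, Pfeiffer, and the lines SU-DHL-4, SU-DHL-6 and SU-DHL-10. HT, OCI-LY-19 and Toledo are labelled EZH2 wild type. EZH2 is the enzyme of Polycomb repressive complex 2 that methylates histone H3 at repressed genes, and GSK126 is a small molecule that inhibits it. Every culture stood for 72 h in 0.1% DMSO, the vehicle, either alone or with 500 nM GSK126, and each line and treatment has 2 arrays, 40 in all. By the labels' growth IC50, Pfeiffer (28 nM), WSU-DLCL2 (134 nM) and KARPAS-422 (232 nM) were the 3 most sensitive of the 10 lines. The first question was how the members changed with GSK126 in each line. The second was how far WSU-DLCL2 differed from Pfeiffer and KARPAS-422, which are EZH2 mutant too.

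Cholesterol is built from acetyl-CoA through mevalonate, isoprenoid units, squalene and lanosterol, and fatty acids are built from the same precursor by acetyl-CoA carboxylase and fatty acid synthase. Both routes are controlled by the SREBP transcription factors, which SREBF1 and SREBF2 encode. When sterols in the endoplasmic reticulum run low, SREBPs are carried to the Golgi, cleaved and sent to the nucleus, where they switch on most of these genes. INSIG1 holds SREBPs back in the endoplasmic reticulum and is itself an SREBP target, and dividing lymphocytes depend on the pathway for new membrane.

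Levels are given as log2 of the array signal plus a small constant, so a step of 1 is a doubling. A change is the mean of the GSK126 arrays minus the mean of the DMSO arrays, with its standard error. A member rose or fell when its adjusted p from limma, a linear model fitted to all genes, was under 0.05. Replicate arrays correlated at 0.982 to 0.989 over the genes tested. B cell markers were present, 5 of 6 measured ones lying above the array median on all 40 arrays, while of 7 markers of adipocytes and hepatocytes 6 lay above it on none. Some markers of other cells were bright in some lines, DCN reaching a level of 14.37, CD8A 13.94 and EPCAM 13.62.

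In WSU-DLCL2 most members rose. Of the 26 members 17 rose with GSK126 and 0 fell by limma, 0 also at an unadjusted p under 0.05, and the median change was 0.38. Over all genes tested in that line 13.9% rose and 12.7% fell, and the median change was 0.07. In Pfeiffer 1 member rose and 12 fell, with a median of -0.28, against 14.6% of all genes risen, 9.93% fallen and a median of 0.07. In KARPAS-422 2 rose and 13 fell, with a median of -0.25, against 15.5% risen, 13.4% fallen and a median of 0.01. Both GSK126 arrays lay above both DMSO arrays for 22 members in WSU-DLCL2, 3 in Pfeiffer and 2 in KARPAS-422, and below them for 2, 17 and 18. Among all genes tested 36.5%, 36.4% and 31.0% lay wholly above, and 26.4%, 24.4% and 29.7% wholly below. In whole cultures fewer cells of a kind and less RNA per cell cannot be told apart.

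The size of the rise in WSU-DLCL2 depended on how the arrays were scaled. The median log2 signal of its arrays was 6.00 and 6.16 with DMSO and 6.34 on both with GSK126. With all arrays brought to equal medians, 7 members rose there (HMGCS1, SQLE, LSS, TM7SF2, MSMO1, INSIG1 and FASN) and ELOVL6 fell, by 0.55, with a median change of 0.13 where that of all genes was -0.16. On that scale 827 of all genes rose and 3696 fell in WSU-DLCL2, against 2118 and 1928 on the scale of the deposited values. Pfeiffer then had 13 members fallen and 1 risen, with 969 of all genes risen and 2201 fallen, against 2228 and 1510. KARPAS-422 had 15 fallen and 0 risen by limma, with 1545 of all genes risen and 3298 fallen, against 2355 and 2039. In KARPAS-422 the count also leaned on single arrays: 6 members fell without the second GSK126 array and 8 without the first DMSO array.

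**Figure D1:**
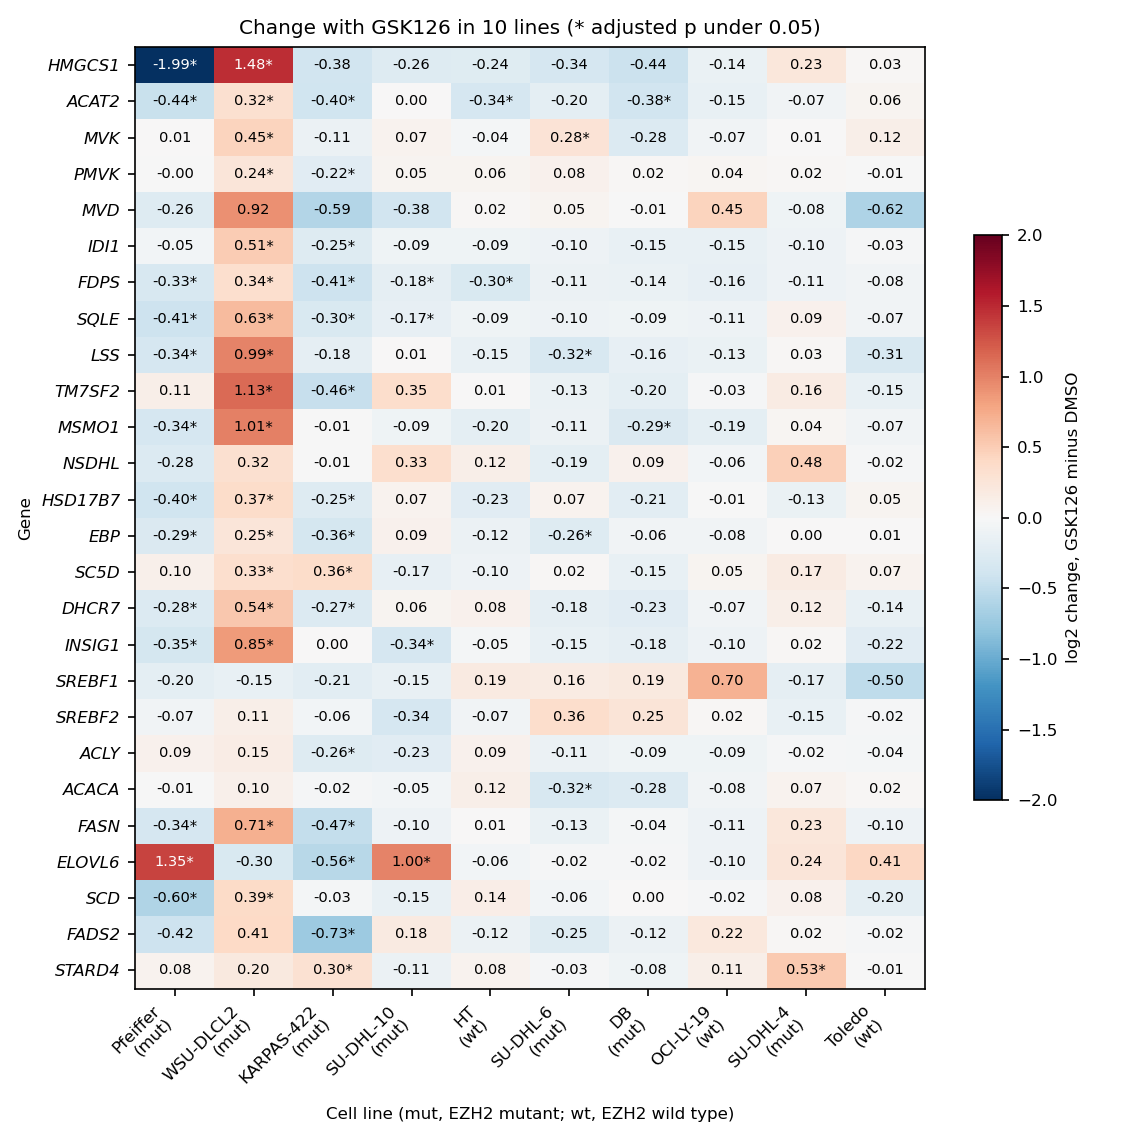
Change of each member (rows) in each line (columns, ordered by growth IC50), as log2 GSK126 minus DMSO from 2 arrays per group; red is higher with GSK126, blue lower, and a star marks an adjusted p under 0.05. The WSU-DLCL2 column holds 17 starred rises, while the Pfeiffer and KARPAS-422 columns hold 12 and 13 starred falls.

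Summed signals of most marker lists lay higher with GSK126 in WSU-DLCL2, on arrays whose median signal was higher too. The ranges of the T and NK cell list overlapped. That of 9 stromal and epithelial markers lay between 2686 and 2772 with DMSO and between 4534 and 4699 with GSK126. Of that list COL3A1, LUM and CDH1 lay above the array median on 0 of the 40 arrays. EPCAM lay above it on 4, KRT18 on 11, COL1A2 on 14, KRT8 on 34, DCN on 39 and COL1A1 on 40. The sum of 8 myeloid markers lay between 143.6 and 267.8, then between 279.1 and 316.9. CD14, S100A9 and MPO lay above the median on 0 arrays, FCGR3B and S100A8 on 1, LYZ on 2, CSF1R on 11 and ITGAM on 23. The sum of 8 T and NK cell markers lay between 271.8 and 337.7, then between 310.1 and 431.5. NKG7 and GNLY lay above the median on 0 arrays, CD2 on 1, KLRD1 on 2, CD3G on 4, CD3D on 7, CD8A on 8 and CD3E on 36. The 5 erythroid and endothelial markers summed to between 225.2 and 250.7, then between 300.5 and 326.2. CDH5 and KDR lay above the median on 0 arrays, VWF on 2, HBB on 39 and PECAM1 on 40. The 7 markers of adipocytes and hepatocytes summed to between 53.8 and 92.1, then between 119.7 and 141.7. The 6 B cell markers summed to between 43980 and 47020, then between 52990 and 53090. By the test 2 B cell markers, 1 stromal or epithelial and 1 erythroid or endothelial marker rose in WSU-DLCL2. The stromal and epithelial sum lay between 12920 and 13850, then between 10130 and 10930 in Pfeiffer, and between 15510 and 15870, then between 18820 and 21880 in KARPAS-422. In Pfeiffer 4 B cell markers rose, and their sum lay between 45940 and 46880, then between 52530 and 56690. In KARPAS-422 3 B cell markers rose and 1 fell, and their sum lay between 38450 and 39120, then between 42970 and 43290. There 2 myeloid markers fell, with sums between 273.3 and 353.5, then between 150.1 and 240.4, and the T and NK cell sum lay between 8654 and 9561, then between 7033 and 7696. The T and NK cell sum in Pfeiffer lay between 13020 and 13320, then between 13770 and 15900. The part of these markers in the change of the members was not tested.

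HMGCS1, in the mevalonate branch, gave the largest contrast. It condenses acetoacetyl-CoA with acetyl-CoA into HMG-CoA. Its level in WSU-DLCL2 was 9.92 and 10.14 with DMSO and 11.55 and 11.47 with GSK126, a rise of 1.48 ± 0.27 (adjusted p = 0.000131). In Pfeiffer it went from 11.80 and 12.02 to 10.86 and 8.98, a fall of -1.99 ± 0.27 (adjusted p = 2.62e-06). The groups did not overlap in either line, but the Pfeiffer GSK126 arrays stood far apart from each other, and without the lower one the change was -1.05. In KARPAS-422 HMGCS1 stood at 12.71 and 12.74 with DMSO and at 12.30 and 12.40 with GSK126. That change of -0.38 ± 0.27 did not pass the test, though the arrays did not overlap. The standard error is shared by all lines. Replicates of HMGCS1 had a standard deviation of 1.32 in Pfeiffer with GSK126, and of 0.02 and 0.07 in the KARPAS-422 groups. In a fit of only the KARPAS-422 arrays limma called the fall (adjusted p = 0.00332). Another probe set of HMGCS1 changed by 1.23 in WSU-DLCL2, -0.46 in Pfeiffer and -0.20 in KARPAS-422.

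MVD decarboxylates mevalonate diphosphate to the first isoprenoid unit. Its levels in WSU-DLCL2 were 7.83 and 7.82 with DMSO and 8.80 and 8.68 with GSK126. Those in Pfeiffer were 8.78 and 8.84, then 8.70 and 8.40, and those in KARPAS-422 were 8.20 and 7.77, then 7.62 and 7.16. The arrays did not overlap in any of the 3 lines, yet the changes of 0.92 ± 0.36, -0.26 ± 0.36 and -0.59 ± 0.36 missed the threshold in each (adjusted p = 0.0604, 0.675 and 0.246). In WSU-DLCL2 MVD was called with a pseudocount of 64 (0.0109), with a filter of 20 arrays (0.0478) and in a fit of only the arrays compared (0.00413).

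The other 5 enzymes of this branch rose in WSU-DLCL2. ACAT2, which joins 2 acetyl-CoA, rose by 0.32 and fell in Pfeiffer (-0.44) and KARPAS-422 (-0.40). MVK, the mevalonate kinase, rose by 0.45 and changed by 0.01 and -0.11 in the other two lines, neither of which passed. Other MVK probe sets changed by -0.52, -0.59 and -0.05 in Pfeiffer, the last of them dim. The next kinase, PMVK, rose by 0.24, was at -0.0013 in Pfeiffer and fell in KARPAS-422 (-0.22). IDI1, which interconverts the isoprenoid units, rose by 0.51, was at -0.05 in Pfeiffer and fell in KARPAS-422 (-0.25). With all IDI1 probe sets averaged limma called a fall in Pfeiffer (-0.22, adjusted p = 0.00969) and no change in KARPAS-422 (0.11). FDPS, which joins them into farnesyl diphosphate, rose by 0.34 and fell in both Pfeiffer (-0.33) and KARPAS-422 (-0.41). Of these calls in WSU-DLCL2, that of PMVK was lost without the first DMSO array or the second GSK126 array (adjusted p = 0.0509 and 0.0688). In KARPAS-422 the PMVK call was lost without the first DMSO array or the second GSK126 array, and the IDI1 call without the latter.

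Squalene epoxidase and lanosterol synthase carry squalene into the sterol ring. SQLE, the epoxidase and a rate-controlling step, was at 12.35 and 12.33 with DMSO and 12.96 and 12.97 with GSK126 in WSU-DLCL2, a rise of 0.63 ± 0.045 (adjusted p = 2.04e-11). It went from 13.15 and 13.11 to 12.72 on both arrays in Pfeiffer, and from 13.04 on both to 12.72 and 12.76 in KARPAS-422, falls of -0.41 and -0.30. No array of one treatment overlapped the other in any of the 3 lines, and with GSK126 both WSU-DLCL2 arrays lay above those of the other two.

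LSS, which closes the rings to lanosterol, was at 10.87 and 10.70 with DMSO and 11.76 and 11.78 with GSK126 in WSU-DLCL2, a rise of 0.99 ± 0.083 (adjusted p = 6.06e-10). It fell in Pfeiffer, from 12.01 and 12.02 to 11.67 and 11.66 (-0.34 ± 0.083). The KARPAS-422 arrays were at 11.60 and 11.69, then 11.54 and 11.39, a change of -0.18 that did not pass. The LSS level in WSU-DLCL2 was 1.22 below Pfeiffer and 0.86 below KARPAS-422 with DMSO, and 0.10 and 0.31 above them with GSK126.

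Between lanosterol and cholesterol, 6 of 7 members rose in WSU-DLCL2, 4 fell in Pfeiffer, and in KARPAS-422 4 fell and SC5D rose. TM7SF2 reduces the sterol ring at carbon 14. Its levels in WSU-DLCL2 were 9.61 and 9.78, then 10.81 and 10.84, a rise of 1.13 ± 0.13 (adjusted p = 2.21e-07). In Pfeiffer they overlapped, at 9.77 and 9.81 with DMSO and 10.06 and 9.74 with GSK126 (0.11 ± 0.13). In KARPAS-422 TM7SF2 fell from 10.78 and 10.64 to 10.30 and 10.20 (-0.46 ± 0.13), a call lost without the first DMSO array (adjusted p = 0.098) or the second GSK126 array (0.0794).

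MSMO1 oxidises the methyl groups at carbon 4. It stood at 11.38 and 11.59 with DMSO and 12.47 and 12.52 with GSK126 in WSU-DLCL2, a rise of 1.01 ± 0.075 (adjusted p = 6.16e-11). In Pfeiffer it fell from 11.95 and 11.80 to 11.56 and 11.50 (-0.34 ± 0.075). In KARPAS-422 it overlapped, at 13.10 and 13.12 with DMSO and 13.18 and 13.00 with GSK126 (-0.01 ± 0.075).

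Of the remaining enzymes of this stretch, HSD17B7, a ketosteroid reductase, rose by 0.37 in WSU-DLCL2 and fell in Pfeiffer (-0.40) and KARPAS-422 (-0.25). EBP, the sterol isomerase, rose by 0.25 and fell by 0.29 in Pfeiffer and by 0.36 in KARPAS-422. DHCR7, which catalyses the last step of one route to cholesterol, rose by 0.54 and changed by -0.28 and -0.27 in the other two lines, both called. DHCR7 was no longer called in Pfeiffer without any 1 of its 4 arrays (adjusted p from 0.0512 to 0.133) and in KARPAS-422 without the first DMSO or the second GSK126 array. HSD17B7 was no longer called in KARPAS-422 without either DMSO array or the second GSK126 array (adjusted p from 0.0619 to 0.211). SC5D, a sterol desaturase, rose in WSU-DLCL2 (0.33) and in KARPAS-422 (0.36) and changed by 0.10 in Pfeiffer. NSDHL, a dehydrogenase acting with MSMO1, changed by 0.32, -0.28 and -0.01 in WSU-DLCL2, Pfeiffer and KARPAS-422, and none passed. In WSU-DLCL2 the EBP call was lost without the first GSK126 array (adjusted p = 0.17), and that of SC5D without the second DMSO array (0.0701).

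The regulators split. INSIG1, the retention protein and SREBP target, rose in WSU-DLCL2 from 11.29 and 11.26 to 12.08 and 12.18, by 0.85 ± 0.07 (adjusted p = 3.34e-10). It fell in Pfeiffer, from 12.20 and 12.22 to 11.82 and 11.89 (-0.35 ± 0.07), and in KARPAS-422 it overlapped, at 12.38 and 12.57 with DMSO and 12.53 and 12.43 with GSK126 (0.00 ± 0.07). The transcription factor genes themselves did not pass in any line. SREBF1 was at 10.70 and 10.82, then 10.62 and 10.60 in WSU-DLCL2, a change of -0.15 ± 0.20. The SREBF1 arrays read 10.36 and 10.12, then 10.13 and 9.94 in Pfeiffer (-0.20 ± 0.20) and 10.76 and 10.68, then 10.56 and 10.46 in KARPAS-422 (-0.21 ± 0.20). SREBF2 was at 10.59 and 10.88, then 10.88 and 10.81 in WSU-DLCL2, a change of 0.11 ± 0.14. In Pfeiffer it read 9.90 and 9.91, then 9.87 and 9.81 (-0.07 ± 0.14), and in KARPAS-422 10.30 and 10.13, then 10.14 and 10.16 (-0.06 ± 0.14).

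**Figure D2:**
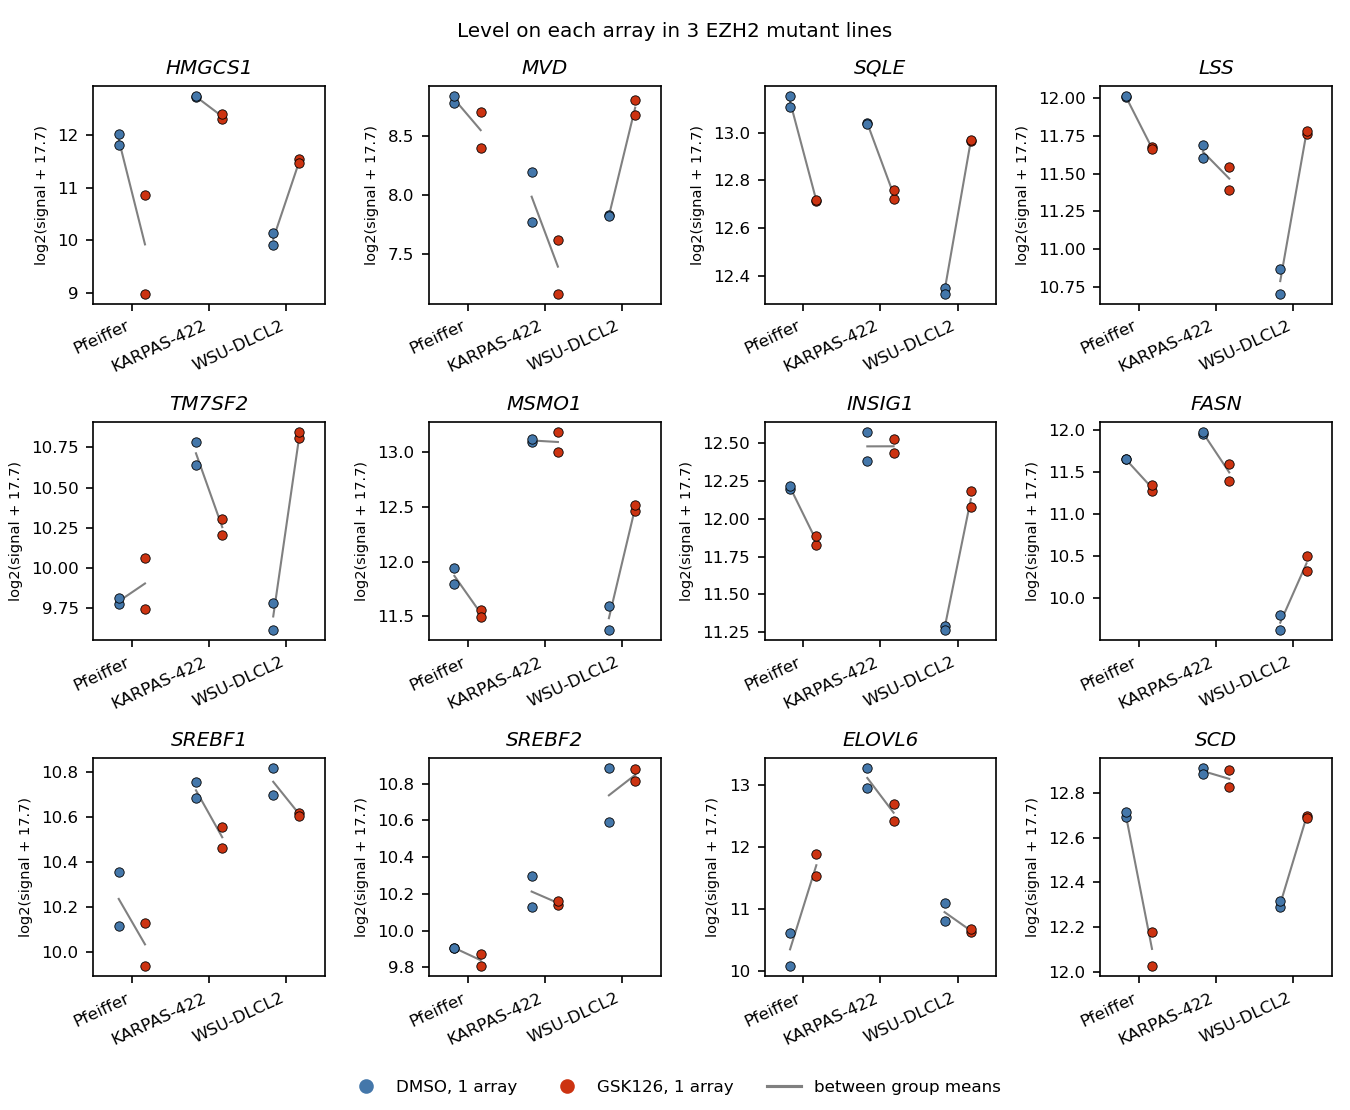
Level on each array, as log2 of signal plus the constant, for 12 members in Pfeiffer, KARPAS-422 and WSU-DLCL2; blue points are DMSO arrays, red points GSK126 arrays, and lines join the group means of 2 arrays. HMGCS1, SQLE, LSS, TM7SF2, MSMO1, INSIG1 and FASN climb in WSU-DLCL2, SREBF1 and SREBF2 have no called change in any of the 3 lines, and ELOVL6 climbs in Pfeiffer.

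Fatty acid synthesis moved less evenly, with 2 of 6 members risen in WSU-DLCL2, 2 fallen and 1 risen in Pfeiffer, and 4 fallen in KARPAS-422. FASN, the synthase that builds palmitate, went from 9.62 and 9.79 to 10.33 and 10.50 in WSU-DLCL2, a rise of 0.71 ± 0.089 (adjusted p = 5.71e-07). It fell in Pfeiffer from 11.66 and 11.65 to 11.28 and 11.35 (-0.34 ± 0.089) and in KARPAS-422 from 11.96 and 11.98 to 11.40 and 11.60 (-0.47 ± 0.089). FASN was low in WSU-DLCL2 under both treatments: its GSK126 arrays still lay below every DMSO and GSK126 array of the other two lines. The FASN fall in Pfeiffer missed the threshold without the first GSK126 array (adjusted p = 0.0546).

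SCD, which puts the first double bond into stearate, rose by 0.39 in WSU-DLCL2, fell by 0.60 in Pfeiffer and changed by -0.03 in KARPAS-422. Its other probe sets changed by -0.35, -0.42 and -0.48 in KARPAS-422. With all of them averaged SCD was called there by limma (-0.32, adjusted p = 0.0194). ELOVL6, which lengthens palmitate to stearate, ran the other way. It went from 10.62 and 10.08 to 11.53 and 11.88 in Pfeiffer, a rise of 1.35 ± 0.15 (adjusted p = 5.61e-08), and also rose in SU-DHL-10, from 10.20 and 10.06 to 10.94 and 11.32 (1.00 ± 0.15). In KARPAS-422 ELOVL6 fell from 12.95 and 13.26 to 12.69 and 12.41 (-0.56 ± 0.15), a call lost without the second DMSO array (adjusted p = 0.109) or the second GSK126 array (0.0967). In WSU-DLCL2 it was at 11.09 and 10.80, then 10.62 and 10.68, a change of -0.30 ± 0.15 that did not pass.

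FADS2, the delta-6 desaturase, fell in KARPAS-422 (-0.73 ± 0.21) and changed by 0.41 and -0.42 in WSU-DLCL2 and Pfeiffer without passing; the KARPAS-422 call was lost without the second DMSO array (adjusted p = 0.106) or the first GSK126 array (0.0637). ACLY, which makes cytosolic acetyl-CoA from citrate, changed by 0.15 and 0.09 in WSU-DLCL2 and Pfeiffer and fell in KARPAS-422 (-0.26), where leaving out any 1 array ended the call. Other ACLY probe sets changed by -0.49 and -0.38 in Pfeiffer. With all of them averaged ACLY was called there by limma (-0.26, adjusted p = 0.00373). ACACA, the acetyl-CoA carboxylase, changed by 0.10, -0.01 and -0.02 in WSU-DLCL2, Pfeiffer and KARPAS-422. The carrier STARD4 rose in KARPAS-422 (0.30) and changed by 0.20 and 0.08 in WSU-DLCL2 and Pfeiffer. That STARD4 call was lost without either DMSO array or the first GSK126 array (adjusted p from 0.0846 to 0.368).

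The response itself was then compared between lines, as the change in WSU-DLCL2 minus the mean change of Pfeiffer and KARPAS-422. It was higher in WSU-DLCL2 for 18 members and lower for ELOVL6, with a median difference of 0.70 and 25 of 26 members above 0. Over all genes tested 8.63% were called higher and 10.6% lower, and the median was 0.01. At equal medians the counts were 17 and 1 and the median difference 0.61, while 588 of all genes were then higher and 1646 lower, against 1312 and 1615. All 7 mevalonate enzymes, both squalene enzymes, 5 of 7 later sterol enzymes, INSIG1, and FASN, SCD and FADS2 were higher.

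HMGCS1 had the largest difference, 2.67 ± 0.34 (adjusted p = 1e-06), and kept 2.20 without the low Pfeiffer array. The next were MVD with 1.34 ± 0.44 (0.0307), TM7SF2 with 1.305 ± 0.16 (9.8e-07), LSS with 1.25 ± 0.10 (5.1e-10) and MSMO1 with 1.19 ± 0.092 (1.92e-10). FASN differed by 1.11 ± 0.11 (1.19e-08), INSIG1 by 1.03 ± 0.086 (6.55e-10) and SQLE by 0.98 ± 0.055 (1.93e-13). Below these came FADS2 (0.98), DHCR7 (0.81), ACAT2 (0.74), FDPS (0.71), SCD (0.70), HSD17B7 (0.70), IDI1 (0.67), EBP (0.57), MVK (0.50) and PMVK (0.35). The difference was 0.46 ± 0.17 for NSDHL, 0.24 for ACLY, 0.17 ± 0.17 for SREBF2, 0.11 for SC5D and ACACA, 0.06 ± 0.24 for SREBF1 and 0.01 for STARD4, and none of these 7 passed. ELOVL6 differed by -0.70 ± 0.18 (adjusted p = 0.00591).

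The less secure of these were MVD, whose call ended in 7 of 12 leave-one-out fits and with a pseudocount of 1 (adjusted p = 0.132), and FADS2 and ELOVL6, whose calls ended without the first WSU-DLCL2 DMSO array (0.0736 and 0.0682). The FADS2 call also ended with a pseudocount of 1 (0.0687), and the PMVK call at equal medians (0.26, adjusted p = 0.19). With all probe sets of a gene averaged, FASN (0.458), ELOVL6 (0.228), FADS2 (0.418) and MVK (0.116) were no longer called, while NSDHL and ACLY were. The second FASN probe set lay above the array median on 0 arrays. Of 10 called members with more than 1 bright probe set, 8 had the same sign of difference on all of them, the exceptions being ELOVL6 and IDI1.

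Taken against each line by itself, with the WSU-DLCL2 arrays shared by both contrasts, the change was higher than in Pfeiffer for 16 members and lower for ELOVL6 (all genes, 7.27% higher and 9.15% lower). Against KARPAS-422 it was higher for 19 and lower for 0 by limma, 0 also at an unadjusted p under 0.05 (all genes, 10.2% and 11.1%). The ELOVL6 difference was -1.65 ± 0.21 against Pfeiffer and 0.26 ± 0.21 against KARPAS-422 (adjusted p = 0.438). SCD differed by 0.98 ± 0.080 from Pfeiffer and by 0.42 ± 0.080 from KARPAS-422, and TM7SF2 by 1.02 ± 0.19 and 1.59 ± 0.19.

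**Figure D3:**
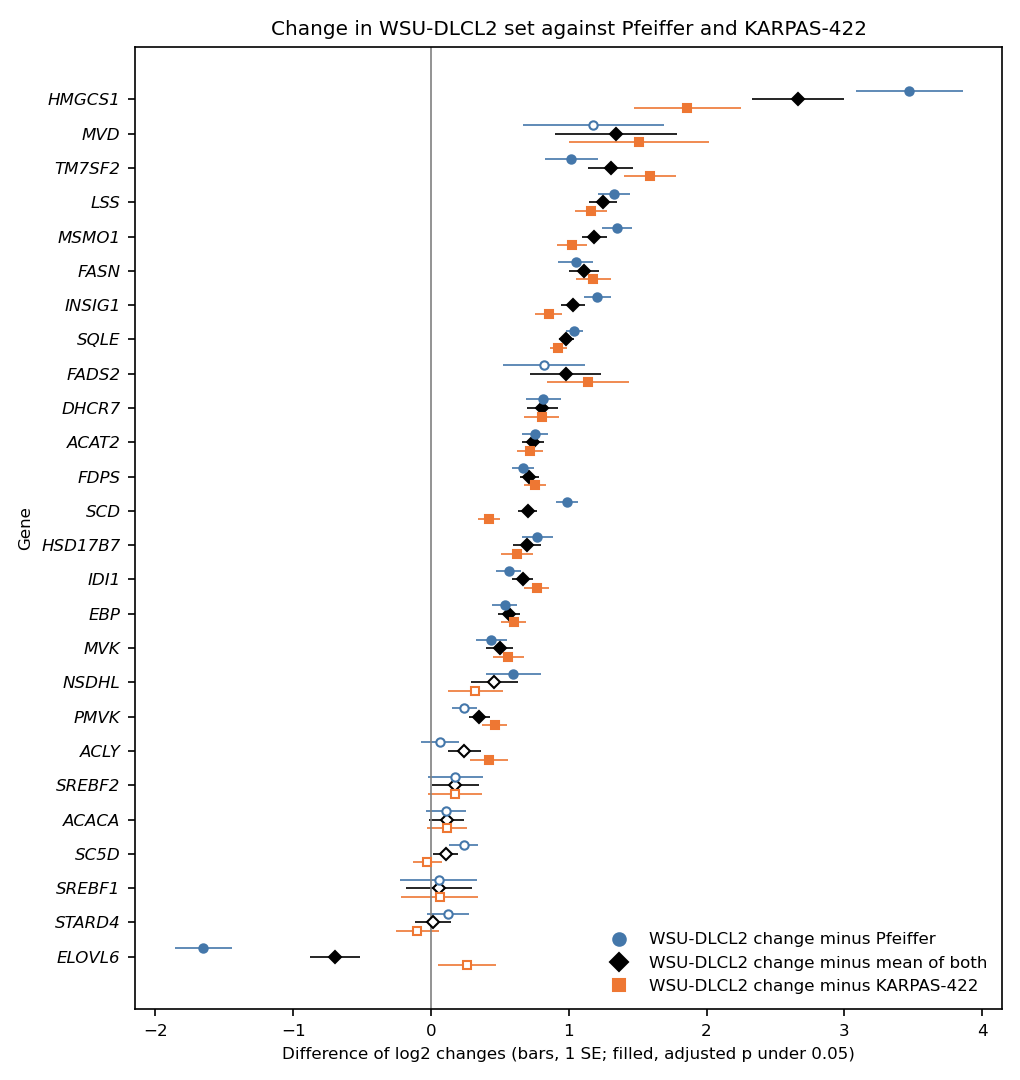
Difference between the change in WSU-DLCL2 and that in Pfeiffer (blue), KARPAS-422 (orange) or the mean of both (black), in log2 units, one row per member; bars are 1 standard error and filled points have an adjusted p under 0.05. For the mean of both lines 18 filled points lie to the right of 0 and ELOVL6 alone to the left.

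The promoters of the members, called or not, were read for a pair of sequence motifs that bear on SREBP targets. RefSeq windows (GRCh38.p14), 300 bases long from 250 before to 50 after a gene's start, were found for 23 of 26 members, 7 of them with more than 1 window. CCAAT, the box bound by NF-Y, a frequent partner of SREBPs, was present on either strand in 75.0% of 32 member windows and in 34.6% of all 35116 windows. CACNCCAC, the core of a sterol regulatory element, was present in 21.9% of member windows and in 5.87% of all windows. Neither motif contains the other. A longer form, TCACNCCAC, was found in 1 member window, that of SREBF2, and in 1.13% of all windows, and GGGCGG, the box bound by SP1, in 87.5% and 45%. These are matches of letters and not sites. Of 15 members with a higher change in WSU-DLCL2 and a window, 14 held CCAAT and 3 held CACNCCAC (IDI1, INSIG1 and SCD). Of all 23 members with a window, 20 held CCAAT and 6 held CACNCCAC. The other holders of CACNCCAC were ACACA, SC5D and SREBF2, none of them called higher, so neither motif was particular to the called members. SREBF2, whose change did not pass, held both as well, and the SREBF1 window held neither. The stretches below lie upstream of the start of 6 called members and of SREBF2, picked with their matches known to show both motifs, 5′ to 3′ in the direction of the gene, with matches to either motif or its complement in capitals.
HMGCS1: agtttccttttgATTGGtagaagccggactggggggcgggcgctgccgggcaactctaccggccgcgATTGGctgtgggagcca
LSS: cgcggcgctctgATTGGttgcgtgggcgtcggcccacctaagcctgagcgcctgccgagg
TM7SF2: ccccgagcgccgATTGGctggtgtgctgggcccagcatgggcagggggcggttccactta
MSMO1: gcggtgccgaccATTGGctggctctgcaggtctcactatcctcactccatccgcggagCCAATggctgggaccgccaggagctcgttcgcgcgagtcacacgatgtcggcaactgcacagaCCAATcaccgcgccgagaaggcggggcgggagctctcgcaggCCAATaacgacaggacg
INSIG1: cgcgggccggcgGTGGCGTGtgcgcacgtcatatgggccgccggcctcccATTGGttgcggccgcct
SCD: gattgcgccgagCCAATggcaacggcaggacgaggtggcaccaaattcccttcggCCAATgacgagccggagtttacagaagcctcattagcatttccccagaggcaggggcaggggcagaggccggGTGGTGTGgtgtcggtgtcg
SREBF2: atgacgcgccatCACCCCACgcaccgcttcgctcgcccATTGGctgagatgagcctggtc
In GRCh38.p14 these lie at chr5:43313496-43313579 (minus strand) for HMGCS1, chr21:46228877-46228936 (minus) for LSS, chr11:65111786-65111845 (plus) for TM7SF2, chr4:165327472-165327651 (plus) for MSMO1, chr7:155297658-155297724 (plus) for INSIG1, chr10:100346992-100347138 (plus) for SCD and chr22:41832961-41833020 (plus) for SREBF2. MSMO1 held 4 matches, SCD 3, HMGCS1, INSIG1 and SREBF2 2 each, and LSS and TM7SF2 1 each.

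The lines also differed before treatment. In DMSO 21 members were lower in WSU-DLCL2 than in Pfeiffer and 3 higher (SREBF1, SREBF2 and ELOVL6), with a median of -0.73, where 29.7% of all genes were lower and 25.9% higher. Against KARPAS-422 20 were lower and 2 higher (SC5D and SREBF2), with a median of -0.75, where 26.9% of all genes were lower and 28% higher. FASN was lower by 1.95 ± 0.089 than in Pfeiffer and by 2.26 ± 0.089 than in KARPAS-422, HMGCS1 by 1.88 ± 0.27 and 2.70 ± 0.27, ACAT2 by 1.36 and 1.75, and INSIG1 by 0.93 and 1.20. Without the second Pfeiffer DMSO array 1 member was higher than in Pfeiffer, and without the second WSU-DLCL2 DMSO array 1 was higher than in KARPAS-422. The sample descriptions carry a tag, R7 for WSU-DLCL2 and R6 for both other lines, so for these levels line and tag cannot be told apart, while the changes within a line share one tag.

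With GSK126 the levels came closer. Against Pfeiffer 11 members were then higher in WSU-DLCL2 and 7 lower, with a median of 0.12, where 26.7% of all genes were higher and 29.6% lower. Against KARPAS-422 8 were higher and 13 lower, with a median of -0.19, where 27.8% were higher and 26.2% lower. The median size of the gap went from 0.81 to 0.37 against Pfeiffer and from 0.81 to 0.57 against KARPAS-422. It narrowed for 18 and 20 of 26 members, against 51.3% and 54.4% of all genes. HMGCS1 crossed over against Pfeiffer, from 1.88 below to 1.59 ± 0.27 above (0.65 above without the second Pfeiffer GSK126 array), and stayed 0.84 below KARPAS-422. MSMO1 ended 0.96 ± 0.075 above Pfeiffer, and SREBF2 was above both lines before (0.83 and 0.52) and after treatment (1.01 and 0.70). A level with GSK126 is the DMSO level plus the change, so these gaps are not separate evidence from the changes.

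**Figure D4:**
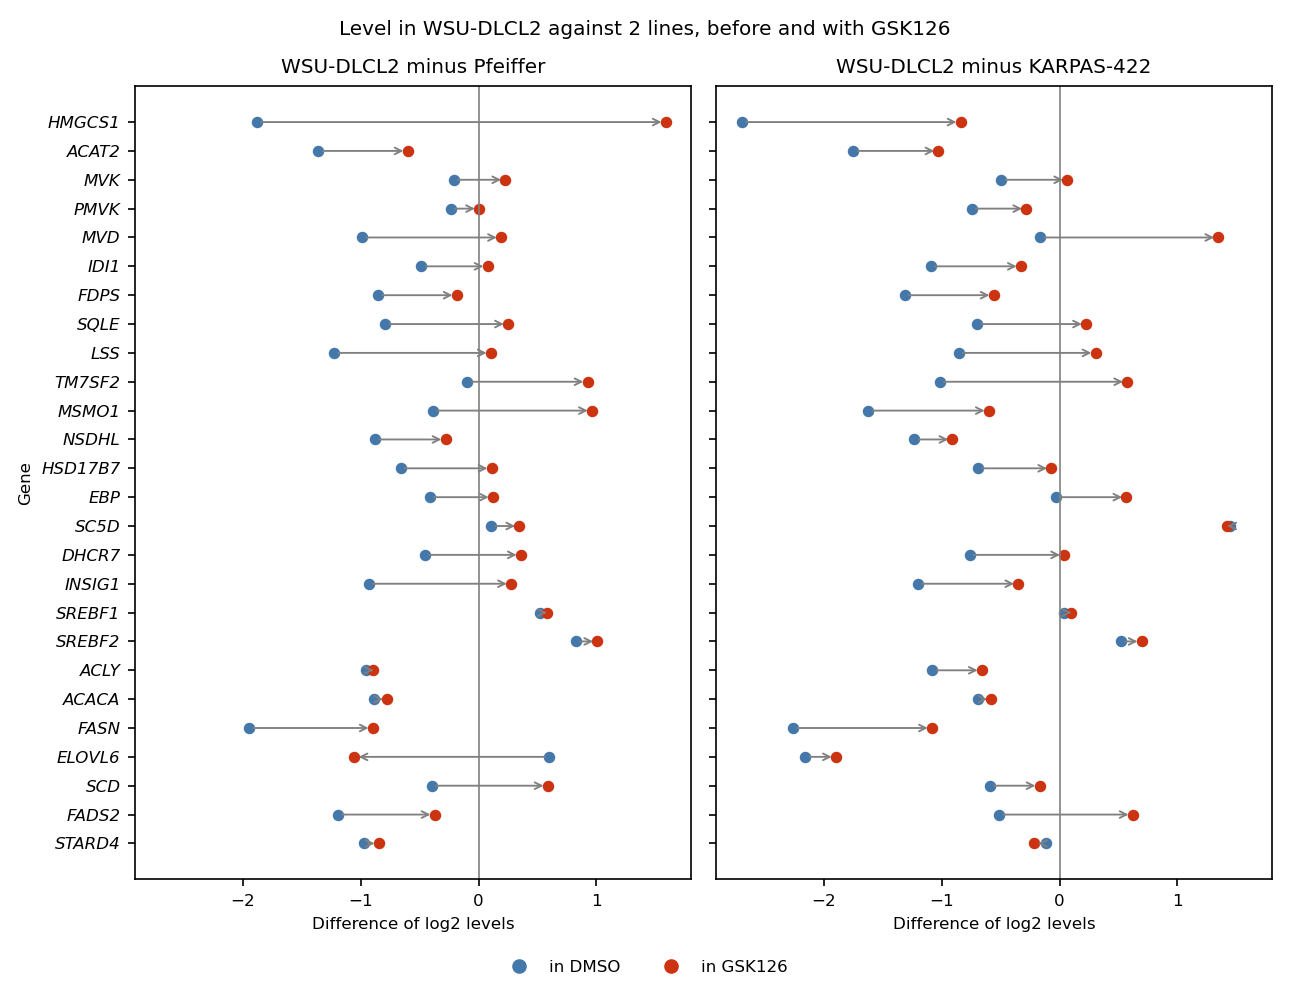
Level in WSU-DLCL2 minus the level in Pfeiffer (left) or KARPAS-422 (right), in log2 units, for each member; blue points are the DMSO levels, red points the GSK126 levels, and arrows run from the first to the second. The median gap was -0.73 and -0.75 in DMSO and 0.12 and -0.19 in GSK126.

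Across all 10 lines, WSU-DLCL2 had the lowest DMSO level for 10 of 26 members, where it had the lowest for 10.8% of all genes. Those were ACAT2, MVK, IDI1, FDPS, MSMO1, NSDHL, HSD17B7, INSIG1, ACLY and FASN. Its median rank among the 10 lines, counted from the lowest, was 2 in DMSO and 7 with GSK126, when it was lowest for 2 members, ACAT2 and ACLY. A low DMSO level was not particular to WSU-DLCL2. Toledo was lowest in DMSO for 7 members (11.3% of all genes), and the median rank was 2.5 in Toledo and 3.5 in OCI-LY-19. Toledo was among the lowest 3 lines for 19 members, WSU-DLCL2 for 17. KARPAS-422 was highest in DMSO for 10 members, and the share of all genes was not counted there. The widest DMSO ranges between lines were those of FADS2 (from 4.94 in SU-DHL-10 to 11.03 in DB), ELOVL6 (from 7.84 in DB to 13.11 in KARPAS-422) and SREBF1 (from 7.25 in Toledo to 11.08 in HT). The narrowest was that of MVK, from 9.76 to 10.40.

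**Figure D5:**
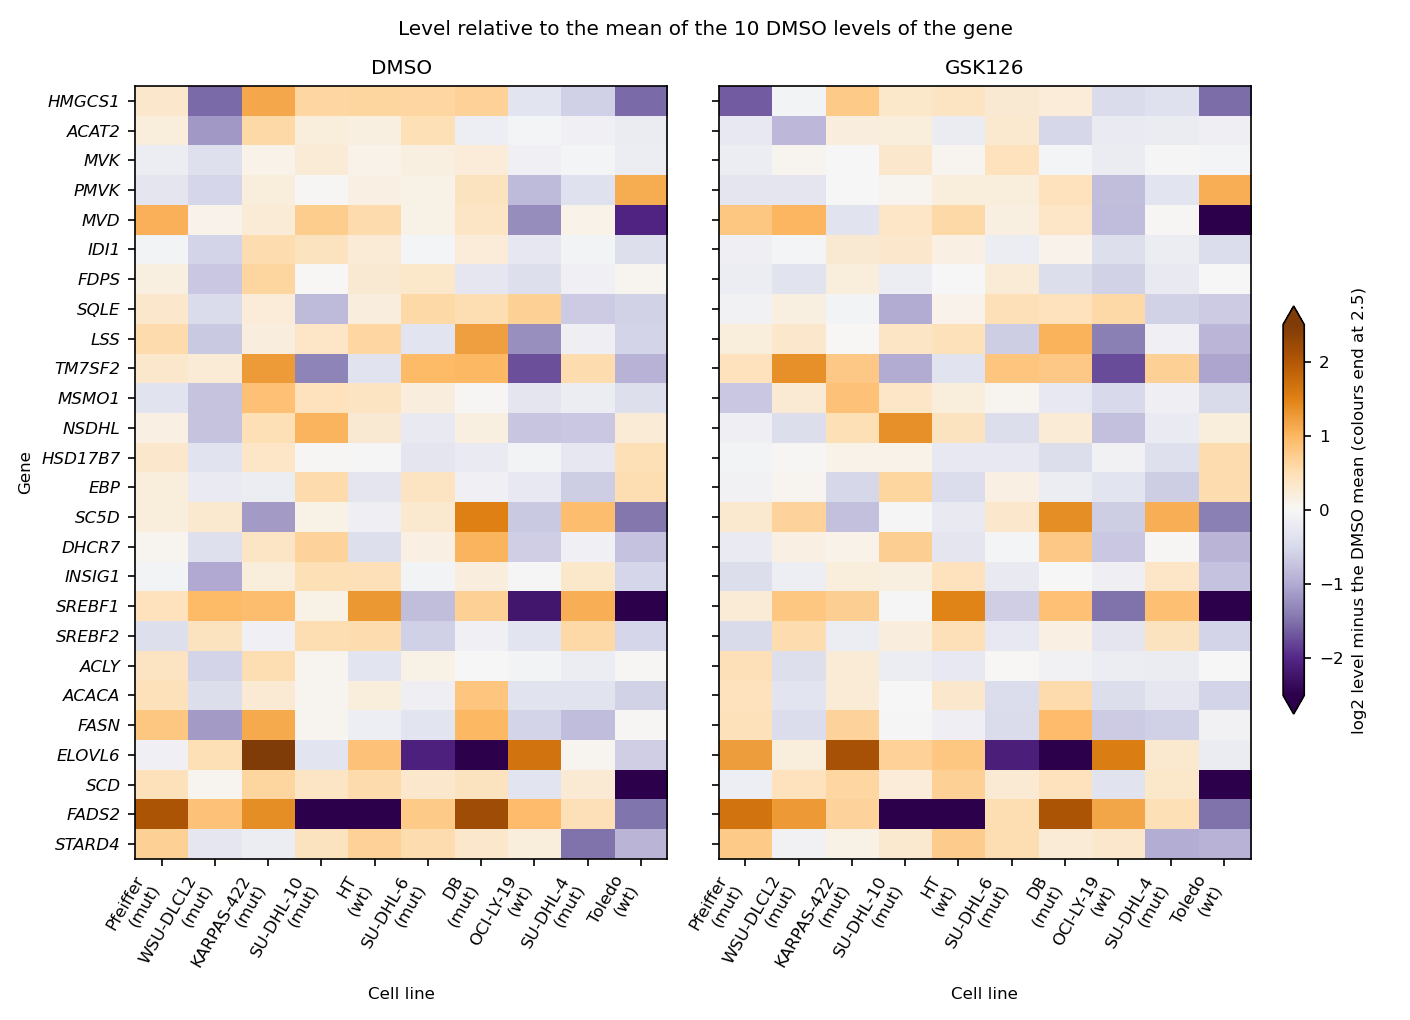
Level of each member (rows) in each line (columns) with DMSO (left) and GSK126 (right), as log2 difference from the mean of the gene's 10 DMSO levels; purple is below that mean and orange above, and colours end at 2.5. The WSU-DLCL2 column is mostly purple in DMSO, where its median rank is 2 of 10, and paler or orange with GSK126, where it is 7.

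The change in WSU-DLCL2 was the highest of the 10 lines for 19 members, where it was the highest for 14.3% of all genes. The lowest change lay in Pfeiffer for 10 members and in KARPAS-422 for 9 (12.5% and 16.7% of all genes). For IDI1 and FDPS the other lines apart from those 3 all had changes below 0, from -0.15 to -0.03 and from -0.30 to -0.08. The other 7 lines had few calls. In SU-DHL-10 ELOVL6 rose and FDPS, SQLE and INSIG1 fell (INSIG1 by 0.34 ± 0.07), where 11% of all genes rose and 7.16% fell. In SU-DHL-6 MVK rose and LSS, EBP and ACACA fell (7.42% and 3.56% of all genes). ACAT2 and FDPS fell in HT (6.31% and 3%), and ACAT2 and MSMO1 in DB (2.5% and 0.618%).

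STARD4 rose in SU-DHL-4, from 9.11 and 9.04 to 9.56 and 9.63 (0.53 ± 0.11), the only member called there, where 2.14% of all genes rose and 0.454% fell. In OCI-LY-19 and Toledo limma called 0 members, where it called 2.41% and 0.164% of all genes. At an unadjusted p under 0.05 there were 6 and 5 members, and the share of all genes at that looser threshold was not counted. At equal medians the fallen members numbered 11 in SU-DHL-10 and 9 in SU-DHL-6, where 21.8% and 12.5% of all genes fell, against 3 members in each on the deposited scaling.

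With the line as the unit of replication, limma called 0 members on the mean change of the 7 mutant lines, where 9.97% of all genes were called, and 0 had an unadjusted p under 0.05. The smallest adjusted p was 0.222, for ACAT2 (-0.17 ± 0.083). On the deposited scale 1 was called without WSU-DLCL2, and the share of all genes was not counted in that fit. At equal medians 5 of 26 were called, where 17.8% of all genes were. On the mean change of the 3 wild type lines, on the difference between genotypes, and on the slope of change on log10 of the growth IC50 the limma counts were 0, each with 0 members at an unadjusted p under 0.05 (0%, 0% and 0.00657% of all genes called). HMGCS1 had the largest slope, 0.40 ± 0.29 per step of 1 in log10 IC50 (adjusted p = 0.662). Between genotypes limma called 0 members on the DMSO level, where it called 0.0526% of all genes. Without HT 2 were called, and the share of all genes was not counted in that fit. At an unadjusted p under 0.05 there were 5 members, DHCR7, MVD, TM7SF2, SCD and SREBF1, each higher in the mutant lines by 0.84 to 1.65. The share of all genes at that looser threshold was not counted.

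Other genes of lipid metabolism were called in both directions in each of the 3 lines. Of 67 in the lists 53 were tested: 14 rose and 8 fell in WSU-DLCL2, 10 and 5 in Pfeiffer, and 11 and 9 in KARPAS-422. The risen share was 26.4% in WSU-DLCL2, against 13.9% of all genes, 18.9% in Pfeiffer, against 14.6%, and 20.8% in KARPAS-422, against 15.5%. The fallen shares were 15.1%, 9.43% and 17%, against 12.7%, 9.93% and 13.4%. In the difference of WSU-DLCL2 from the mean of the other two, 8 were higher and 9 lower (8.63% and 10.6% of all genes), with a median of 0.05. Among 5 other sterol step genes 3 were higher, led by CYB5R3 (0.36 ± 0.090), a reductase that feeds electrons to sterol enzymes, and PDSS1 (0.35 ± 0.10), which makes the ubiquinone side chain and fell in KARPAS-422 (-0.31). Of 7 genes of SREBP maturation 1 was lower, MBTPS2, a protease that cleaves SREBPs, having fallen in WSU-DLCL2 (-0.51 ± 0.059) and Pfeiffer (-0.27 ± 0.059).

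Of 8 genes of sterol uptake and transport 1 was higher and 3 lower. TMEM97, a sterol-regulated membrane protein, rose in WSU-DLCL2 (0.33 ± 0.056) and fell in Pfeiffer (-0.26) and KARPAS-422 (-0.45). Of the members 7 of 26 did the same: ACAT2, FDPS, SQLE, HSD17B7, EBP, DHCR7 and FASN. The share of all genes with that joint pattern was not counted. Line by line, 13.9% of all genes rose in WSU-DLCL2, 9.93% fell in Pfeiffer and 13.4% fell in KARPAS-422. NPC1, which exports cholesterol from lysosomes, fell in WSU-DLCL2 (-0.59 ± 0.10) and changed by -0.01 and -0.20 elsewhere. In the liver X receptor (LXR) and efflux list of 6, ABCA1, the cholesterol exporter, rose in all 3 lines, by 0.57 ± 0.17 in WSU-DLCL2, 1.67 in Pfeiffer and 3.31 in KARPAS-422, a difference of -1.92 ± 0.21 (adjusted p = 7.53e-08). MYLIP, a ubiquitin ligase induced by LXR, rose by 0.75, 0.25 and 0.36.

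In the list of fatty acid and lipid assembly, 3 of 20 were higher and 3 lower. MID1IP1, an activator of acetyl-CoA carboxylase, rose by 1.22 ± 0.19 in WSU-DLCL2 and changed by 0.01 and 0.04 in Pfeiffer and KARPAS-422. ACSL1, which activates fatty acids, rose in KARPAS-422 (0.75 ± 0.14) and changed by -0.13 and 0.29 in WSU-DLCL2 and Pfeiffer. Of 7 oxidation genes 1 was lower, ACADVL, which starts the oxidation of long-chain fatty acids. It rose in Pfeiffer (1.01 ± 0.089) and changed by -0.16 in WSU-DLCL2.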

How the data were processed

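RNA from 40 cultures (10 lines, DMSO or GSK126, 2 arrays each, called biological replicates in the labels) was hybridised to one-colour Affymetrix arrays. The authors deposited log2 signals made with MAS5, per the submitters' processing notes, and no version number is stated for it there. In the deposited values the 2% trimmed mean of the linear signal was 500 on every array. This scaling fixes the mean and not the median of an array. Whether the 2 arrays of a group came from separate cultures is not stated beyond the word in the labels, so p-values measure the spread between these arrays. Each group has 2 arrays, which limits the precision.

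Of 54675 probe sets 41091 named one gene, 1801 several and 11721 none, and 62 were controls. The probe set with the highest mean stood for each of 19775 genes, and 15211 genes above the array median on at least 2 arrays were tested. Changes are on the scale of log2 of the signal plus 17.7, the median over arrays of the 25th percentile, which understates changes of dim genes. One mean per group was fitted in limma 3.58.1 (R 4.3.3) with an intensity trend, 20 residual degrees of freedom and Benjamini-Hochberg adjustment over all genes tested. Mutant and wild type lines, and the slope on IC50, were compared by limma over 10 line values.

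The fit was also run on simulated data with known changes in WSU-DLCL2. Changes of size 0.5, 1 and 2 were given to 67, 67 and 66 of 15211 genes in a single run. They were called for 44.8%, 53.7% and 87.9% of the changed genes. In the real data 13.9% of all genes rose and 12.7% fell in WSU-DLCL2. The adjusted threshold depends on how many genes change, so these shares may not carry over. In the difference from the mean of Pfeiffer and KARPAS-422 the shares were 32.8%, 46.3% and 75.8%. Of the calls 7.46% were false in WSU-DLCL2, above the nominal level of 0.05, and 3.74% in the difference. Same-numbered arrays of a line did not deviate together, their correlations running from -0.0446 to 0.0694, so the numbers were not taken as pairs. The members, lists, markers and motifs were chosen with earlier results of these data known. Values of every array are given for the 8 members with the largest called difference of WSU-DLCL2 from the mean of Pfeiffer and KARPAS-422, and for INSIG1, SREBF1 and SREBF2. Array values of ELOVL6 in 4 lines, STARD4 in SU-DHL-4 and FADS2 in SU-DHL-10 are also given, chosen after their values were seen. Alternatives were the pseudocount, the filter, the scaling, the probe sets of a gene, the variance trend, the arrays in the fit, a replicate block, and leaving out each array or line. No scanner files were used here.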

Additional observations from a re-analysis of the deposited data

Results flagged for a closer look

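Among the 7 mutant lines, 52 sets of values (the change and the DMSO level of each member) were screened for a line far from the others. A line was flagged in 10 of them, at a cut-off that chance passes in about 1 in 20 independent sets. These sets are not independent, as members moved together and were chosen with earlier results known. All genes were not screened, so the number flagged cannot be set against that rate. WSU-DLCL2 stood apart in the change of MVD (0.92, the nearest other line at 0.05), IDI1 (0.51 against -0.05), FDPS (0.34 against -0.11), LSS (0.99 against 0.03), MSMO1 (1.01 against 0.04) and INSIG1 (0.85 against 0.02). It also stood apart in the DMSO level of ACAT2 (11.29, the nearest at 12.31) and INSIG1 (11.28, the nearest at 12.21). SU-DHL-10 stood apart in the DMSO level of TM7SF2 (8.12, the nearest at 9.70) and FADS2 (4.94, the nearest at 9.32). FADS2 in SU-DHL-10 read 4.81 and 5.06 with DMSO and 5.33 and 4.91 with GSK126.

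The change in WSU-DLCL2 differed from the mean change of Pfeiffer and KARPAS-422 by the limma test of that difference for 19 members. The differences were 2.67 for HMGCS1, 0.74 for ACAT2, 0.50 for MVK, 0.35 for PMVK, 1.34 for MVD, 0.67 for IDI1 and 0.71 for FDPS. They were 0.98 for SQLE, 1.25 for LSS, 1.305 for TM7SF2, 1.19 for MSMO1, 0.70 for HSD17B7, 0.57 for EBP and 0.81 for DHCR7. They were 1.03 for INSIG1, 1.11 for FASN, 0.70 for SCD, 0.98 for FADS2 and -0.70 for ELOVL6.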

How the results depend on the processing

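Over the alternatives, 1563 values of single members kept their side of the threshold, 75 were no longer called and 22 became called. Another 4 that had been called changed sign. A value called in neither fit counted among the 1563 even where its sign changed, as for STARD4 in WSU-DLCL2 at equal medians (-0.048). Of the counts 24 moved by over 1.5 times and 420 did not. With arrays at equal medians 7 members rose and 1 fell in WSU-DLCL2, 0 rose in KARPAS-422 by limma, the other 7 lines had 24 calls in place of 13, and 5 members were called on the mutant mean. Calls over all genes moved too, from 9.97% to 17.8% on the mutant mean, and from 7.16% to 21.8% fallen in SU-DHL-10 and 3.56% to 12.5% in SU-DHL-6. On that scale 1 member had a higher DMSO level and 4 a higher GSK126 level in WSU-DLCL2 than in KARPAS-422, where 22.6% and 18.9% of all genes did. PMVK and EBP then changed by -0.010 and -0.0071 in WSU-DLCL2. The members risen in KARPAS-422 numbered 1 under quantile normalization, with the mean of all probe sets, with no intensity trend, and in a fit of only the arrays compared, which gave 7 calls in the other 7 lines. Of all 15211 genes 2021 rose there under quantile normalization, 2111 with that mean and 2338 with no trend. They were not counted in fits of only the arrays compared. With the mean of all probe sets 0 members had a lower response in WSU-DLCL2 by limma, where 1245 of all genes did. IDI1 and FADS2 then changed by 0.11 and 0.017 in KARPAS-422. The cause of these shifts was not tested.

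Leaving out 1 array at a time gave 6 to 11 fallen and 1 to 2 risen members in KARPAS-422, 0 to 1 with a lower response in WSU-DLCL2, and 1 to 3 and 1 to 2 with a higher DMSO level than Pfeiffer and KARPAS-422. Leaving out 1 line gave 0 to 1 on the mutant mean and 0 to 2 on the genotype difference of the DMSO level. Shares of all genes were not counted in any of the leave-one-out fits. With 2 arrays a group, small changes may be missed.

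With the replicate block 18 members rose in WSU-DLCL2, 12 fell in Pfeiffer, and 13 fell and 2 rose in KARPAS-422. Of all 15211 genes 2013 rose in WSU-DLCL2, 1419 fell in Pfeiffer, and 1928 fell and 2265 rose in KARPAS-422. The DMSO level was higher in WSU-DLCL2 than in KARPAS-422 for 1 member and 3834 of all genes. Under the block the NSDHL difference (adjusted p = 0.0494 by limma) and the MVD change in WSU-DLCL2 (0.0341) became called. NSDHL was called with the filter of 20 arrays as well (0.0489).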
